A study of Mus musculus with 20 samples.

Results

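The potassium channel genes described here are 6 genes, Kcnk1, Kcnk5, Kcnk6, Kcnip2, Kcnn4 and Kcna3, looked up by symbol in every expression table of the study. All 6 were found in each table, which lists 12975 genes in the reporter experiment, 13766 in the Bcl6 experiment, 13624 in the Prdm1 experiment and 25036 in the Tcf7 experiment. Another 60 genes with a symbol starting with Kcn stood in at least 1 table. The 6 genes were chosen by their measured levels and differences in all 4 comparisons. Their values, intervals and calls at the threshold are therefore a description and not a test of these genes, and no p-value is printed for them. Kcnip2 encodes an auxiliary subunit and the other 5 genes encode channel pores.

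The libraries are bulk RNA-seq of intraepithelial lymphocytes (IELs), the T cells that sit within the gut epithelium, here those with an αβ T cell receptor and a CD8αα homodimer. In the reporter experiment, cells of Bcl6-RFP/RFP mice, whose red fluorescent protein reports Bcl6, were sorted from small intestine as RFP+CD160+ (3 libraries) or RFP-CD160- (3 libraries). In the other experiments, CD8αα+ αβ IELs were taken as a whole from the small intestine of Bcl6fl/fl Cd8cre, Prdm1fl/fl Cd8cre or Tcf7fl/fl Cd8cre mice and of their Bcl6fl/fl, Prdm1fl/fl or Tcf7fl/fl littermates, with 2 libraries per genotype and all mice at steady state. Bcl6 encodes a transcriptional repressor, Prdm1 encodes BLIMP1 and Tcf7 encodes TCF1. The controls carry the floxed alleles without Cd8cre, so an effect of Cd8cre itself cannot be told apart from that of the deletion, and the labels give no ages. A further 2 libraries titled LI, of Bcl6-RFP/RFP genotype and labelled small intestine, name no sorted group and are given as single values. The labels do not say that libraries of a group came from separate animals, so p-values measure only the spread between these libraries.

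Potassium channels let potassium leave the cell and hold the membrane voltage negative. In T cells that voltage is the driving force for calcium entry through Orai channels after receptor signalling, and the channels best known for it are the voltage-gated Kv1.3, encoded by Kcna3, and the calcium-activated KCa3.1, encoded by Kcnn4. Tandem-pore leak channels, the K2P family encoded by Kcnk genes, conduct at rest. KChIP proteins such as that encoded by Kcnip2 bind calcium and are known for modulating Kv4 channels, which Kcnd genes encode.

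All libraries held about 14540000 to 48210000 reads in genes, as recovered from the deposited values. In the 6 sorted reporter libraries Cd3e, a part of the T cell receptor complex, stood at 157 to 246 FPKM (fragments scaled to gene length and library depth) and Cd8a at 542 to 612 FPKM in RFP+CD160+ and 871 to 946 FPKM in RFP-CD160- libraries, while Cd4 was at most 0.0881 FPKM and Cd8b1 between 0.720 and 1.27 FPKM. Bcl6 was 4.44-fold and Cd160 3.60-fold higher in RFP+CD160+ than in RFP-CD160- libraries. Prdm1 was 11.2-fold lower in the Prdm1 knockout and Tcf7 1.97-fold lower in the Tcf7 knockout. Bcl6 lay below 1 FPKM in all 4 libraries of its own experiment, at 0.550 and 0.638 in the knockout and 0.735 and 0.772 in the littermates, so the label of that knockout was not checked by a tested gene level. Transcripts of epithelial marker genes were present throughout. The summed level of 15 epithelial markers was 65.7 to 111 FPKM in RFP+CD160+ and 84.9 to 337 FPKM in RFP-CD160- libraries. Epcam alone was at 30.3 to 32.7 FPKM in the former and 40.9 to 53.5 FPKM in the latter, a large part of the lower sums. Which cells these transcripts came from was not tested. The sum was 11726 and 22435 size-factor-scaled reads in the Prdm1 knockout against 6674 and 7448 in its littermates.

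Of the 6 genes, 3 were higher in RFP+CD160+ IELs and in the Prdm1 knockout and lower in the Tcf7 knockout, so the 250 bases upstream of their starts are shown, with those of Kcnk5, which had another pattern, beside them. The sequences are those of RefSeq on GRCm38, read on the strand of the gene, 5′ to 3′. They lie at chr8:125994852-125995101 on the plus strand for Kcnk1, chr19:45816064-45816313 on the minus strand for Kcnip2, chr7:24370013-24370262 on the plus strand for Kcnn4 and chr14:20181783-20182032 on the minus strand for Kcnk5. Capitals mark the single match found to any of the 3 motifs searched.
Kcnk1: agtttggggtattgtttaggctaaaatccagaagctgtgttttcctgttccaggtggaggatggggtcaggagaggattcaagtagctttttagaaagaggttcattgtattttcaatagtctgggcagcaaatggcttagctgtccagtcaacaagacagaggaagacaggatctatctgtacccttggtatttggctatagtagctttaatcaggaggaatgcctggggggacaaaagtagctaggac
Kcnip2: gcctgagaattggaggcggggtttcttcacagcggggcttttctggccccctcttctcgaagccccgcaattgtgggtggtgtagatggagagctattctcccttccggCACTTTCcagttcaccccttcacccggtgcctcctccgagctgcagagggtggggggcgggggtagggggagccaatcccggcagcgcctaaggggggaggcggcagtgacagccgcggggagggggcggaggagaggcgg
Kcnn4: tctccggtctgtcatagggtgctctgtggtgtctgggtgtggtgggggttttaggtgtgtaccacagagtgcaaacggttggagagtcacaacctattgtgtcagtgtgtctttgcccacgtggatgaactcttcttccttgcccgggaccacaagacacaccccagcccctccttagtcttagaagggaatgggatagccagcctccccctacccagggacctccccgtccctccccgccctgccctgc
Kcnk5: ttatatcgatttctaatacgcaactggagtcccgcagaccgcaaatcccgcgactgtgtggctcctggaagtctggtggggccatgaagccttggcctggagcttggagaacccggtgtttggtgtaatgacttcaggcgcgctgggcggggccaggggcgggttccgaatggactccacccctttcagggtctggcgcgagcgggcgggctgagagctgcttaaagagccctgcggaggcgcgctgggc
The motifs were CTTTGA for TCF/LEF factors, GAAAGTG for BLIMP1 and TTCNNNGAA for BCL6, searched on both strands. The Kcnip2 sequence holds GAAAGTG on the opposite strand, with its first base at position -141 from the start. Of 32851 promoters of the same length, 4.01% held GAAAGTG, 13.8% CTTTGA and 7.02% TTCNNNGAA. A match is a description of these letters and not a binding site, and the other 3 sequences, like that of Kcna3, held none of these letters in this window.

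The first question was how the 6 genes differ between the sorted populations. Kcnk1, Kcnip2 and Kcnn4 were higher in RFP+CD160+ IELs by 10.4-fold, 4.21-fold and 10.9-fold in mean FPKM, Kcnk5 and Kcnk6 were 8.71-fold and 2.07-fold lower, and Kcna3 differed by 1.03-fold. In bulk RNA, fewer cells of a type and less RNA per cell cannot be told apart. All 6 passed the filter of at least 1 FPKM in 3 libraries, and the difference passed an adjusted p of 0.05 (limma) for 3 genes in the higher and 2 in the lower direction, beside 38.0% of the 9717 genes tested in either direction, 16.4% higher and 21.6% lower. The groups did not overlap for 5 of the 6 genes and for 51.9% of all genes tested. With equal library totals 74.0% of all calls were higher, in place of 43.1%. Kcnk1 and Kcnn4 passed the filter only through the RFP+CD160+ libraries and Kcnk5 only through the RFP-CD160- libraries. The contrasts of all 4 experiments were in view when the genes were chosen, so nothing is read from these counts or from those in the knockout experiments. Other markers differed between the same libraries: 4 of 5 tested IEL markers fell in RFP+CD160+ IELs (Itgae by 0.68, Cd7 by 0.78 and Cd8a by 0.67 on the log2 scale among them), and so did Itgam, from 1.30 to 0.0588 FPKM in the mean, and Pecam1, from 6.16 to 2.17 FPKM (limma adjusted p under the threshold for each). Their part in the differences of the 6 genes was not tested.

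**Figure D1:**
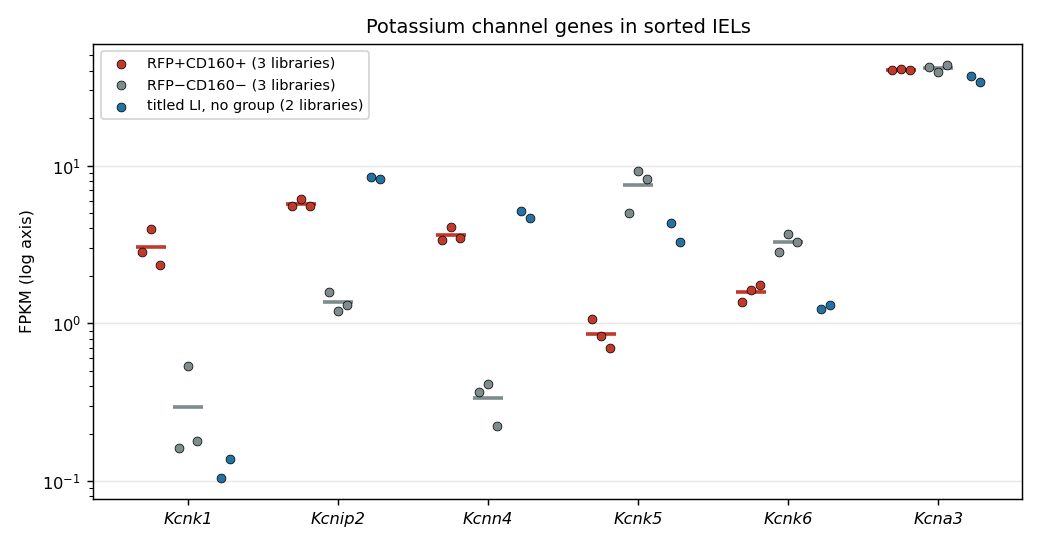
FPKM on a log axis of each gene in each library of the reporter experiment, with 1 point per library and a bar at the mean of each sorted group. RFP+CD160+ points lie above RFP-CD160- points for Kcnk1, Kcnip2 and Kcnn4, below them for Kcnk5 and Kcnk6 and among them for Kcna3, while the 2 libraries titled LI lie above all sorted libraries for Kcnip2 and Kcnn4.

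Kcnn4, encoding the calcium-activated channel KCa3.1, lies at chr7:24370263-24386690 on the plus strand of GRCm38. It stood at 3.39, 4.08 and 3.47 FPKM in the RFP+CD160+ libraries and at 0.367, 0.411 and 0.225 FPKM in the RFP-CD160- libraries. Every RFP+CD160+ library was far above every RFP-CD160- library. The difference was 1.80 ± 0.10 (SE) on the log2(FPKM + 1) scale, with a 95% interval of 1.56 to 2.04, and it was 2.75 with a pseudocount of 0.25.

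Kcnk1 encodes the leak channel TWIK1 and lies at chr8:125995170-126030685 on the plus strand. Its RFP+CD160+ values were 2.84, 3.94 and 2.33 FPKM, and its RFP-CD160- values 0.163, 0.537 and 0.180 FPKM, the latter from 6 to 20 reads per library. The groups did not overlap, and the second RFP-CD160- library, the highest of its group, was also the one with the highest epithelial marker sum, at 337 FPKM against 84.9 and 122 in the others. The part of epithelial RNA in these Kcnk1 values was not tested. The log2 difference was 1.63 ± 0.17 (95% interval 1.24 to 2.03) and became 2.63 with a pseudocount of 0.25. An antisense gene, Gm45875, shares 179 exonic bases with Kcnk1 on the opposite strand, and whether the counting used strand is not given in the sources used here, so reads of the 2 genes cannot be told apart there.

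Kcnip2, at chr19:45791839-45816061 on the minus strand, encodes the auxiliary protein KChIP2. It was at 5.52, 6.14 and 5.56 FPKM in RFP+CD160+ and 1.58, 1.19 and 1.32 FPKM in RFP-CD160- libraries. The lowest RFP+CD160+ library thus stood above the highest RFP-CD160- library, with a log2 difference of 1.51 ± 0.09 (95% interval 1.31 to 1.72). Of the genes for its usual Kv4 partners, Kcnd1 was the one with values in these libraries, at most 0.189 FPKM and below the filter.

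The other K2P genes had the opposite direction. Kcnk5, at chr14:20140057-20181809 on the minus strand, encodes TASK2, a leak channel opened by alkaline pH and cell swelling. It stood at 1.06, 0.829 and 0.695 FPKM in RFP+CD160+ and at 4.98, 9.25 and 8.25 FPKM in RFP-CD160- libraries, a log2 difference of -2.16 ± 0.19 (95% interval -2.60 to -1.72). The RFP-CD160- libraries were uneven, yet all lay above the RFP+CD160+ libraries. Kcnk6 encodes TWIK2 and lies at chr7:29221926-29232515 on the minus strand. It was at 1.37, 1.62 and 1.75 FPKM against 2.84, 3.71 and 3.27 FPKM, a smaller difference of -0.73 ± 0.10 without overlap.

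Kcna3, a single-exon gene at chr3:107036169-107038070 on the plus strand, encodes Kv1.3. It was the highest of the 6 genes in both sorted groups, at 40.3, 41.0 and 40.3 FPKM in RFP+CD160+ and 42.4, 39.5 and 43.7 FPKM in RFP-CD160- libraries. The groups overlapped and the log2 difference was -0.04 ± 0.05, with a 95% interval of -0.17 to 0.08. Below Kcna3, the order by mean FPKM in RFP+CD160+ IELs was Kcnip2, Kcnn4, Kcnk1, Kcnk6 and Kcnk5, with the library ranges of Kcnn4 and Kcnk1 overlapping. In RFP-CD160- IELs the order was Kcnk5, Kcnk6, Kcnip2, Kcnn4 and Kcnk1, and the last 2 again overlapped. The second place thus belonged to Kcnip2 in one population and to Kcnk5 in the other.

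The Bcl6 experiment addressed which of these levels differ in IELs of mice labelled as Bcl6 knockouts. Kcnk5 was 4.43-fold lower in the Bcl6fl/fl Cd8cre libraries, at 4.81 and 2.33 FPKM against 15.1 and 16.5 FPKM in the littermates, with a log2 difference of -1.93 ± 0.26 (95% interval -2.52 to -1.35). Both knockout libraries lay far below both littermate libraries although they differed from each other. Kcnk5 was the 1 gene called among the 5 that passed the filter, in the lower direction, beside 0.418% of 9573 genes called in either direction, 0.387% lower and 0.0313% higher. That share rests on 40 genes, which became 1562 without the first knockout library and 199 without the second, and nothing is read from the count. The groups did not overlap for 4 of the 5, beside 33.0% of all genes tested. The Kcnk5 call was lost without the filter on low values or after quantile normalisation, with its difference at -1.93 and -1.95. The Paneth cell genes Defa24 and Lyz1 were lower in the same knockout libraries, by 3.85-fold and 5.61-fold. They were the 2 of 15 epithelial markers called, while the median log2 difference of the 15 was 0.05 and their sum was 279 and 308 FPKM against 379 and 396 FPKM. Their part in the Kcnk5 difference was not tested.

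The other genes differed less in the Bcl6 experiment. Kcnk1 was at 0.933 and 1.26 FPKM in the knockout and 2.12 and 1.94 FPKM in the littermates, a log2 difference of -0.54 ± 0.20, without overlap and not called. Kcnn4 was at 2.69 and 1.58 FPKM against 3.05 and 2.97 FPKM, a difference of -0.38 ± 0.22 whose 95% interval, -0.88 to 0.12, included 0. It was called only when the first knockout library was left out, at -0.64. Kcnip2 (2.10 and 2.61 against 2.61 and 2.82 FPKM) and Kcna3 (5.92 and 5.70 against 5.33 and 5.92 FPKM) had intervals of -0.58 to 0.28 and -0.36 to 0.44. Kcnk6, at 0.359 to 0.449 FPKM in all 4 libraries, did not pass the filter. In the littermates Kcnk5 stood above Kcna3, 15.8 ± 1.02 against 5.62 ± 0.42 FPKM (SD, n = 2), whereas in the knockout Kcna3 was the higher, 5.81 ± 0.16 against 3.57 ± 1.75 FPKM. The littermates of the Prdm1 and Tcf7 experiments did not have this order. Per kilobase of exon, Kcna3 stood above Kcnk5 there, at 1501 against 189 and 1725 against 194 scaled reads.

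Without Prdm1, 3 of the 6 genes were higher. Kcnk1 was 8.06-fold higher in Prdm1fl/fl Cd8cre IELs, at 1253 and 1553 size-factor-scaled reads against 118 and 230 in the littermates, a log2 difference of 3.07 ± 0.31 (95% interval 2.34 to 3.81). Leaving out 1 library at a time or changing the other settings gave 2.59 to 3.55. Of 15 epithelial markers, 10 were called higher in the knockout, Krt8 by 4.51-fold, Cdh17 by 4.17-fold and Vil1 by 3.08-fold. Itgam was 10.9-fold lower in the knockout, at a mean of 58.9 against 644 reads, and its part in the differences of the 6 genes was not tested. The knockout library with 22435 reads of summed epithelial markers had 1553 reads of Kcnk1 and the one with 11726 had 1253, and the part of epithelial RNA in the Kcnk1 difference was not tested. The littermate libraries themselves were uneven, the second holding 12267 against 6555 reads of Cd160 and 12467 against 6605 reads of Tcf7. Tcf7 was 3.15-fold higher in the Prdm1 knockout, between 28954 and 31096 reads. In RFP+CD160+ IELs Tcf7 was 47.4-fold higher and Prdm1 25.9-fold lower than in RFP-CD160- IELs, so these contrasts share changes in both genes. The part of Tcf7 in the differences of the 6 genes was not tested there.

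Kcnn4 and Kcnip2 were also higher without Prdm1. Kcnn4 stood at 578 and 689 reads against 235 and 280, a log2 difference of 1.30 ± 0.18 (95% interval 0.88 to 1.71). Kcnip2 stood at 546 and 556 reads against 269 and 293, a difference of 0.97 ± 0.15 (95% interval 0.61 to 1.33). In both genes the knockout libraries were close to each other and well clear of the littermates. All 6 genes passed the filter and these 3 were called higher, with none called lower, beside 4.29% of 10969 genes called higher, 2.54% lower and 6.84% in either direction, and nothing is read from this count. The groups did not overlap for 4 of the 6 genes and for 52.4% of all genes tested.

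Kcnk6 had the other direction in the Prdm1 experiment, at 284 and 291 reads against 520 and 429. Its difference of -0.71 ± 0.17, without overlap, was not called. It was called without the second littermate library, at -0.85. Kcnk5 was at 576 and 413 reads in the knockout and at 847 and 442 in the littermates. The groups overlapped and the 95% interval of the difference was wide, -1.08 to 0.43, and without the second littermate library the difference was -0.80 and was called. Kcna3 was at 2380 and 2858 reads against 3251 and 2457, with an interval of -0.50 to 0.26. Per kilobase of exon, Kcnk1 ranked second after Kcna3 in the Prdm1 knockout, at 628 ± 94.8 (SD, n = 2) against 1377 ± 178, while in the littermates it was at 77.9 ± 35.6, with library values that overlapped those of Kcnip2 and Kcnn4.

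**Figure D2:**
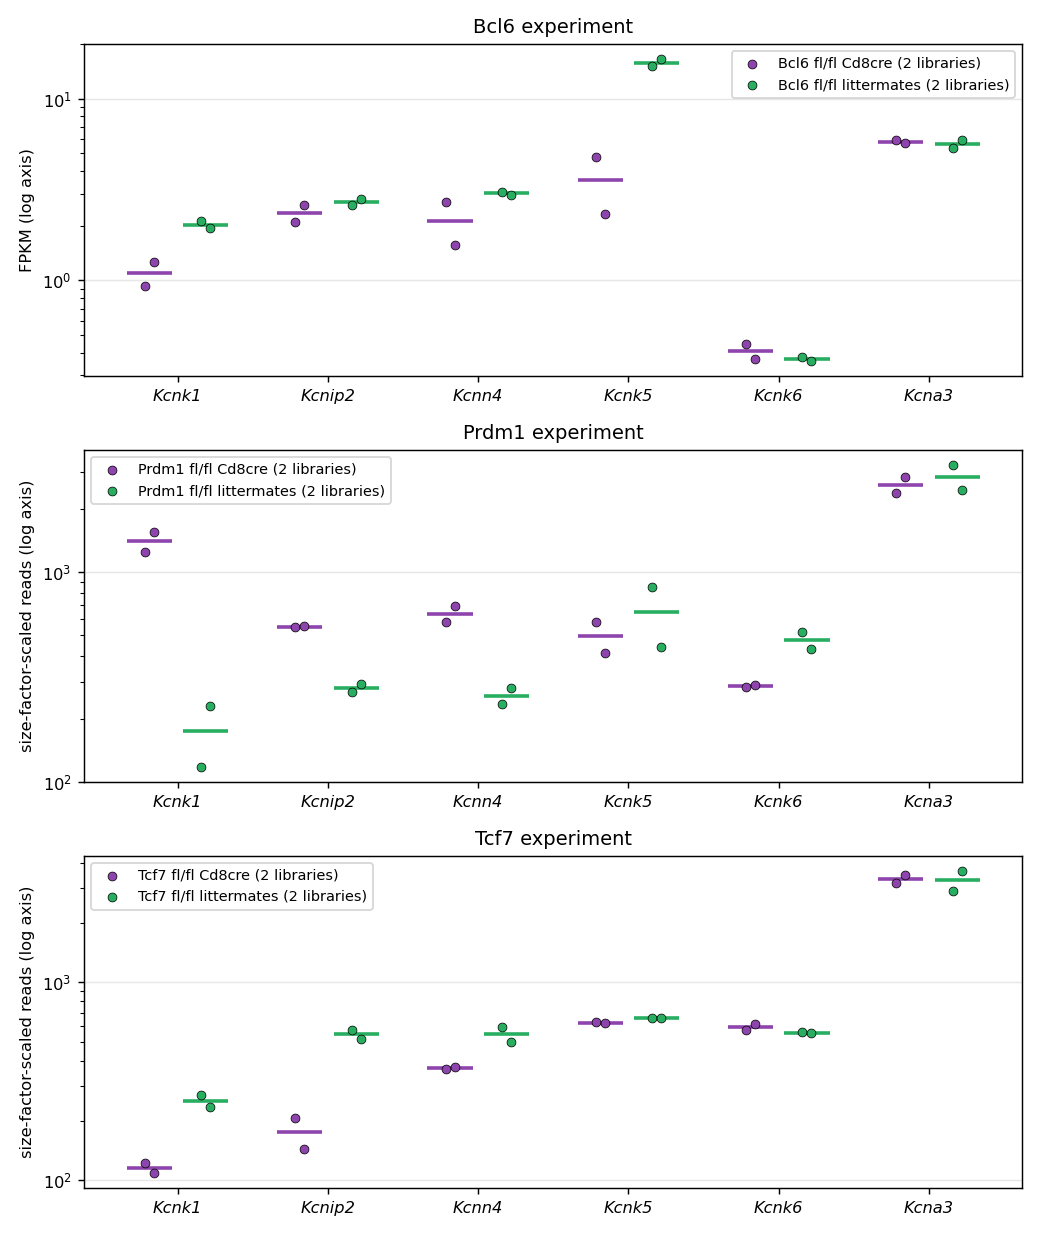
Level of each gene in each library of the 3 knockout experiments, in FPKM for Bcl6 and size-factor-scaled reads for Prdm1 and Tcf7, on log axes, with 1 point per library and a bar at each group mean. Kcnk5 is the gene set apart in the Bcl6 experiment, Kcnk1, Kcnip2 and Kcnn4 are higher in the Prdm1 knockout, and the same 3 genes are lower in the Tcf7 knockout.

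Deletion of Tcf7 gave lower levels of the genes that were higher without Prdm1. The genes were chosen with both contrasts in view, so these opposite directions are a description. Kcnip2 was 3.12-fold lower in Tcf7fl/fl Cd8cre IELs, at 207 and 143 reads against 576 and 516, a log2 difference of -1.66 ± 0.19 (95% interval -2.07 to -1.25). Kcnk1 was 2.18-fold lower, at 121 and 109 reads against 269 and 233, a difference of -1.12 ± 0.21 (95% interval -1.58 to -0.66). Both genes had littermate libraries above every knockout library. For Kcnn4 the values were 363 and 374 reads against 596 and 497, a difference of -0.56 ± 0.14 (95% interval -0.87 to -0.26) that was not called with all libraries and was called without the second littermate library, at -0.69. The 2 called genes of 6 stand beside 1.23% of 15210 genes called lower, 1.49% higher and 2.72% in either direction, and nothing is read from this count. Non-overlapping groups were seen for 5 of the 6 genes and for 41.6% of all genes tested. Of 15 epithelial markers, 4 were called higher in this knockout, among them Lyz1 by 1.82-fold, Muc2 by 1.90-fold and Defa24 by 1.70-fold, and Reg3b was 1.81-fold lower, with sums of 20872 and 22317 reads against 16498 and 16990. Itgam was 1.55-fold, Hbb-bs 2.06-fold and Hba-a1 1.90-fold higher in the same libraries. The part of these in the differences of the 6 genes was not tested.

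The remaining genes were close between Tcf7 knockout and littermates. Kcnk5 was at 630 and 623 reads against 657 and 664, Kcnk6 at 576 and 616 against 561 and 552, and Kcna3 at 3176 and 3496 against 2894 and 3667. The 95% intervals of their log2 differences were -0.32 to 0.16, -0.16 to 0.35 and -0.17 to 0.23. Only Kcna3 overlapped between the groups, as the knockout libraries of Kcnk5 and Kcnk6 stood just outside the littermates'. Per kilobase of exon, Kcnip2 went from the third of the 6 genes in the littermates, at 157 ± 12.2 (SD, n = 2), to the last in the knockout, at 50.3 ± 13.0, where its libraries overlapped those of Kcnk1 at 51.5 ± 3.97.

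**Figure D3:**
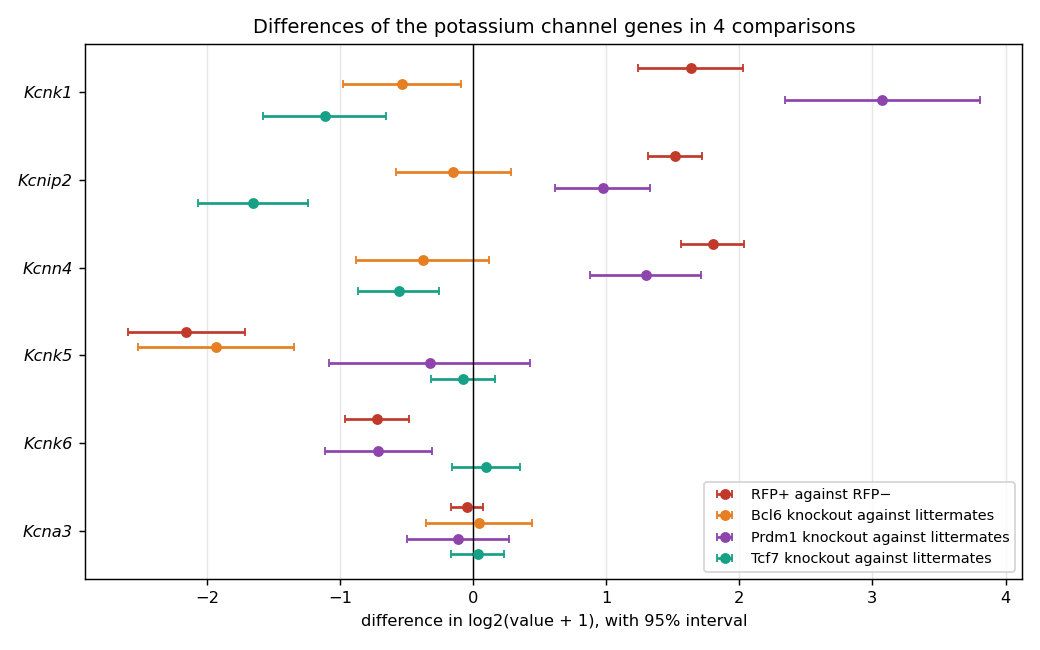
Difference in log2(value + 1) of each gene in the 4 comparisons, with 95% intervals from limma, positive where the first group named is higher. Kcnk1, Kcnip2 and Kcnn4 have positive differences for RFP+ against RFP- and for the Prdm1 knockout and negative ones for the Tcf7 and Bcl6 knockouts. The estimate for Kcnk5 is negative in all 4, but its intervals for the Prdm1 and Tcf7 knockouts include 0. Every interval of Kcna3 includes 0, as do those of Kcnip2 and Kcnn4 for the Bcl6 knockout and of Kcnk6 for the Tcf7 knockout.

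Genes whose 4 differences were most like those of a member were sought among 8814 genes tested in every comparison, by Euclidean distance over the 4 log2 differences. The nearest to Kcnn4 were Kit, the receptor for stem cell factor, at a distance of 0.24, then Cd160 at 0.33 and Bend4 at 0.39. The reporter cells were sorted on CD160, so the reporter difference of Cd160 follows from the sort, and nothing is read from its place. Nearness also depends on the log2(value + 1) scale, which understates the folds of genes at low FPKM. On it the reporter differences of Kcnn4 and Cd160 were 1.80 and 1.83, while their folds of mean FPKM were 10.9 and 3.60. Distances with another pseudocount were not computed. For Kcnip2 they were Slamf6, a lymphocyte surface receptor, at 0.51, the cation channel gene Trpv2 at 0.81 and Cyp2j6 at 0.90. Kcnk1 had its nearest genes farther away, Slc2a6 at 1.11, Grtp1 at 1.36 and Cd83 at 1.45. So had Kcnk5, with Hopx at 1.19, Ifng at 1.60 and Bmp7 at 1.62. These members also had larger differences, so the distances are not compared between members. The length of the 4 differences (root of the summed squares) was 3.69 for Kcnk1 and 2.92 for Kcnk5, against 2.45 for Kcnip2 and 2.32 for Kcnn4. Kcna3 was left out because its 4 differences were too small, and Kcnk6 because it was not tested in the Bcl6 experiment.

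The other potassium channel genes, taken by symbol, were mostly too low to test. In the reporter experiment 33 were listed and 5 passed the filter, of which 1 rose and 3 fell in RFP+CD160+ IELs (limma, adjusted over all genes tested). Over all genes 16.4% were called higher and 21.6% lower. The median difference of the 5 was -0.25 beside -0.03 over all genes. Without the filter 4 were called higher and 5 lower, so the balance of directions depends on it. Kcnc1, which did not pass the filter, was at 0.770, 0.807 and 1.20 FPKM in RFP+CD160+ libraries. In RFP-CD160- libraries it was at most 0.0317 FPKM. Kcng3, encoding a Kv6 subunit that forms no channel alone and modifies others, was at 0.318, 0.225 and 0.529 FPKM in RFP+CD160+ and at 5.77, 7.99 and 8.06 FPKM in RFP-CD160- libraries, a log2 difference of -2.60 ± 0.14 (limma adjusted p = 5.7e-06). All RFP-CD160- libraries were above 5 FPKM and all RFP+CD160+ libraries below 1 FPKM, so the gene passed the filter only through the former. Kcnh2, encoding the voltage-gated channel known as ERG1, rose from 3.41, 2.29 and 2.65 FPKM to 5.51, 5.75 and 5.88 FPKM, a difference of 0.84 ± 0.11 (limma adjusted p = 0.00062). Kcnab2, encoding a cytoplasmic beta subunit of Kv1 channels, fell by 0.25 on the log2 scale (limma adjusted p = 0.0067) and was no longer called once library totals were made equal. Kcnh3 fell by 0.36 (limma adjusted p = 0.029), a call lost in most alternatives.

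In the Prdm1 experiment 12 of 39 listed genes passed the filter, 2 rose and 1 fell, beside 4.29% higher and 2.54% lower over all genes. The median difference was 0.40 beside -0.04 over all genes. Kcng3 was at 346 and 209 reads in the knockout and 3775 and 2758 in the littermates, a log2 difference of -3.58 ± 0.26 (limma adjusted p = 0.0025), so that it was low in RFP+CD160+ IELs and low without Prdm1. Kcnq1 was at 144 and 191 reads against 35.2 and 23.3 (limma adjusted p = 0.012), and Kcne3 at 77.3 and 83.2 against 12.4 and 14.7 (limma adjusted p = 0.021). These encode a pore and its beta subunit that together form a channel of intestinal crypt epithelium, and the epithelial marker sum of the knockout libraries was 11726 and 22435 reads against 6674 and 7448. Its part in the Kcnq1 and Kcne3 differences was not tested. Kcnq1 and Kcne3 passed the filter only through the knockout libraries where they were high, and the Kcne3 call was lost without either of these.

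Among the other potassium channel genes, none was called in the Bcl6 experiment (0 of 5 tested by limma, 0 at an unadjusted p under 0.05) or in the Tcf7 experiment (0 of 16 tested by limma, 2 at an unadjusted p under 0.05, Kcnj8 and Kcng3, both higher in the knockout). The medians were -0.25 beside 0.03 and 0.13 beside 0.00 over all genes. Kcng3 was abundant in all Tcf7 libraries, at 2876 and 3141 reads in the knockout and 2326 and 2890 in the littermates, whereas in the Bcl6 libraries it was at 0.158 to 0.269 FPKM and did not pass the filter.

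**Figure D4:**
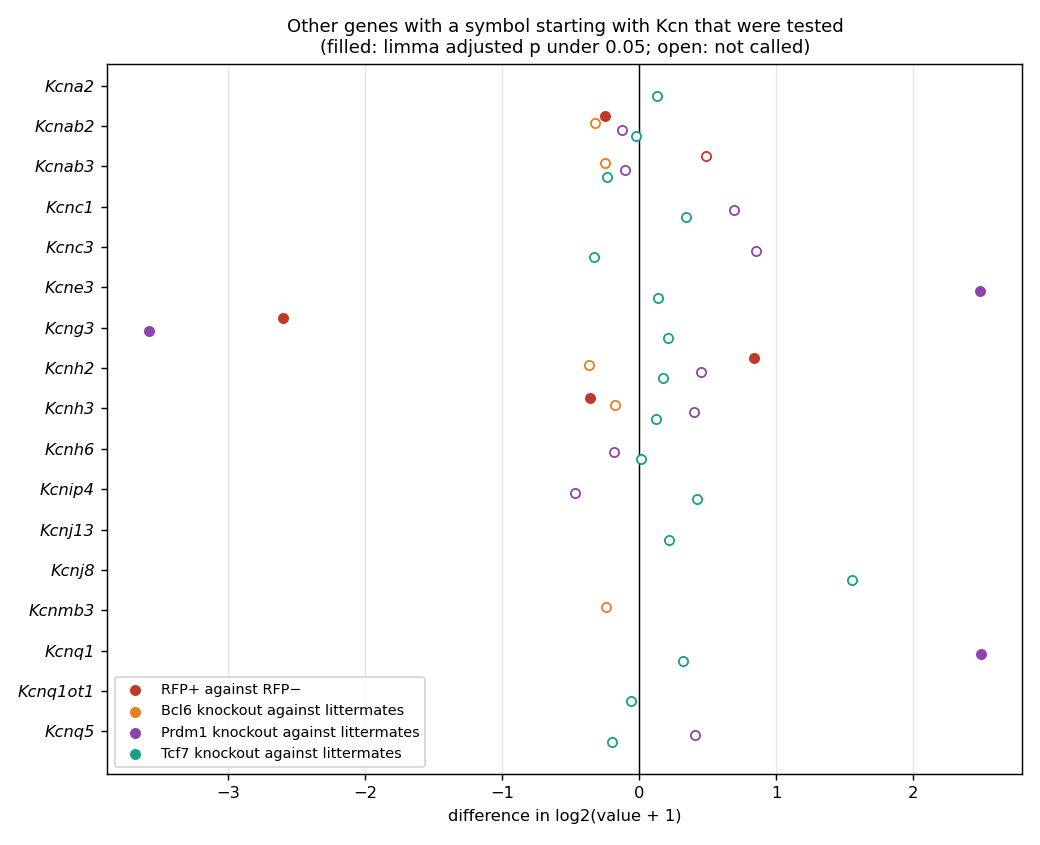
Difference in log2(value + 1) of each other tested gene with a symbol starting with Kcn, in the 4 comparisons, with filled points for an adjusted p under 0.05 (limma). Units are as in the figure before, so sizes are not compared between FPKM and scaled reads. Kcng3 is far to the left in RFP+ against RFP- and in the Prdm1 knockout, and Kcnq1 and Kcne3 are the filled points to the right in the Prdm1 knockout.

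Calcium entry and the calcineurin-NFAT pathway, which act downstream of the membrane voltage, were followed with a list of 31 genes. In the reporter experiment 29 were tested, 7 rose and 10 fell in RFP+CD160+ IELs, beside 16.4% higher and 21.6% lower over all genes, and the median difference was -0.03, as over all genes. Trpv2 rose from 0.891, 1.16 and 1.22 FPKM to 4.54, 4.74 and 4.08 FPKM (log2 difference 1.38 ± 0.09, limma adjusted p = 2.1e-05), and the calcium channel gene Orai2 rose by 0.72 (limma adjusted p = 5.5e-05). Of the calcium pumps, Atp2b4, which exports calcium across the plasma membrane, was between 14.2 and 14.9 FPKM in RFP-CD160- and between 3.51 and 4.59 FPKM in RFP+CD160+ libraries (-1.67 ± 0.09, limma adjusted p = 4.9e-06), and Atp2a3, which fills the endoplasmic reticulum store, fell by 0.90 (limma adjusted p = 1.1e-05).

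Without Prdm1, 30 genes of the list were tested, 1 rose and 2 fell, beside 4.29% higher and 2.54% lower over all genes. Trpv2 rose from 340 and 444 to 784 and 840 reads (1.06 ± 0.17, limma adjusted p = 0.016). Atp2b4 fell by 1.29 (limma adjusted p = 0.0054) and Atp2a3 by 0.64 (limma adjusted p = 0.031), the latter no longer called without either knockout library. In the Tcf7 knockout Trpv2 was the 1 gene called of 30 tested, beside 2.72% over all genes. It was at 396 and 389 reads against 751 and 689 (-0.87 ± 0.12, limma adjusted p = 0.0011). In the Bcl6 experiment none of 29 was called (limma, 1 at an unadjusted p under 0.05). The median differences of the list in the Prdm1, Tcf7 and Bcl6 experiments were -0.07, -0.01 and 0.09, beside -0.04, 0.00 and 0.03 over all genes.

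Regulators of the KCa3.1 channel protein, a list of 6 genes, moved little. Of 3 tested in the reporter experiment 1 was called, beside 38.0% over all genes. This was Mtmr6, a phosphatase known to inhibit KCa3.1, which fell by 0.31 (limma adjusted p = 0.0015). None was called in the knockout experiments (limma, with 0 of 4, 1 of 6 and 1 of 6 at an unadjusted p under 0.05 for Bcl6, Prdm1 and Tcf7). The list's medians lay between -0.01 and 0.07 in the 4 comparisons.

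Potassium pumps, cotransporters and regulators of cell volume made a list of 22 genes. In the reporter experiment 16 were tested, 3 rose and 4 fell, beside 16.4% higher and 21.6% lower over all genes, and nothing is read from this count. Slc12a7, a potassium chloride cotransporter, rose by 0.49 (limma adjusted p = 0.00082). Atp1b3, encoding a beta subunit of the sodium potassium pump, rose by 0.28 (limma adjusted p = 0.039), a call lost in several alternatives. In the other direction, Tmem38b, a potassium-permeable channel of the endoplasmic reticulum, fell by 0.78 (limma adjusted p = 0.00022) and the volume-sensing kinases Stk39 and Wnk1 fell by 0.72 and 0.36 (limma adjusted p = 0.00048 and 0.00052). Lrrc8c, a subunit of volume-regulated anion channels, fell by 0.44 (limma adjusted p = 0.00066). In the Prdm1 experiment 19 were tested, 2 rose and 1 fell, beside 4.29% higher and 2.54% lower over all genes. Slc12a2, the sodium potassium chloride cotransporter, rose from 542 and 559 to 1547 and 1468 reads (1.45 ± 0.11, limma adjusted p = 0.0027) and Atp1b1 by 0.76 (limma adjusted p = 0.014). Both are also genes of epithelium, whose markers were higher in the same libraries, and the part of that in these differences was not tested. Tmem38b fell by 0.57 (limma adjusted p = 0.043), a call lost in several alternatives. None of the 16 tested in the Bcl6 and 19 in the Tcf7 experiment was called (limma, 0 and 2 at an unadjusted p under 0.05). The medians of this list were -0.07, -0.02, 0.05 and -0.01 in the reporter, Prdm1, Bcl6 and Tcf7 comparisons.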

How the data were processed

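The 6 genes, the gene lists and the tests were chosen with earlier results of these data known. Per the submitters' processing notes, Trim Galore 0.4.4, Bowtie2, featureCounts, Subread, RSEM, DESeq2 and the mm10 build were used, with no role stated. The authors deposited FPKM for the reporter and Bcl6 experiments. For the Prdm1 and Tcf7 experiments the deposited values are a signal, reads divided by 1 size factor per library, although named FPKM: 100% of values were whole multiples of 1 step per library (tolerance 0.01 read). For this reason the filter there was set on the signal scale.

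Each experiment was fitted alone with limma 3.58.1 (R 4.3.3) on log2(value + 1), two-sided, with Benjamini-Hochberg adjustment over all genes tested and a threshold of 0.05, so fold changes of low genes are understated on that scale. A gene needed at least 1 FPKM, or 50 scaled reads, in a number of libraries equal to the smaller group's. Fold values without a log are ratios of group means. The fit was tested on simulated data. Alternatives were a pseudocount of 0.25, no filter, equal library totals, quantile normalisation, the replicate number as a block, leaving out each library, and edgeR 4.0.16 on recovered reads of the Prdm1 experiment. Besides the 6 genes, genes named are the sorted or deleted genes, up to 5 called genes per direction of the other potassium channel list and up to 3 of each partner list by smallest p, and the 3 nearest genes over the 4 differences. Kcnc1, Kcnd1, Kcnj8, Lrrc8c and the marker genes, and values of Kcng3 and Trpv2 outside the comparisons that call them, were named after their values were seen. Positions are those of GENCODE vM21 (GRCm38, which mm10 names), whose exonic lengths gave reads per kilobase and the depths. RefSeq promoters were found for 5 of the 6 genes. The values of 1 gene of the partner lists are not reported here.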

Additional observations from a re-analysis of the deposited data

Results flagged for a closer look

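The 2 libraries titled LI enter no comparison, and their levels of 2 genes lay above those of all 6 sorted small-intestine libraries of the same table. Kcnip2 was at 8.48 and 8.19 FPKM, against a highest value of 6.14 FPKM in the RFP+CD160+ libraries. Kcnn4 was at 5.15 and 4.64 FPKM, against a highest value of 4.08 FPKM. The difference was not tested, because the labels put these libraries in no group.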

How the results depend on the processing

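Of the alternatives for the differences of the 6 genes, 217 kept the side of the threshold, 2 lost a call and 6 gained one. The genes were chosen by these differences, so the counts are a description. No alternative turned a called direction, but differences not called with all libraries could change sign. Kcna3 did so in every comparison, and Kcnk5 in the Prdm1 experiment ranged from -0.80 to 0.14. Without the filter on low values, 9 other potassium channel genes were called in the reporter experiment instead of 4. Equal library totals raised the median difference of all genes there from -0.03 to 0.12 and the higher share of calls from 43.1% to 74.0% (53.6% with quantile normalisation), and the directions of the 5 called genes among the 6 held under both. Leaving out 1 library at a time gave 2706 to 3402 called genes in the reporter experiment, 39 to 1562 in the Bcl6 experiment (40 with all, 1562 without the first knockout library), 569 to 1255 in the Prdm1 experiment (750 with all, 1255 without the second littermate library) and 243 to 738 in the Tcf7 experiment (413 with all). For the other potassium channel genes the ranges were 3 to 4, 0 to 1, 2 to 3 and 0 to 2. With 1 library left in a group, that library is assumed to vary like the other group. edgeR on the recovered reads called 523 genes higher and 260 lower in the Prdm1 experiment. It was not run on the Tcf7 experiment, where the step of 1 library was too close to 1 to be accepted as recovered reads.

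The replicate number as a block called 78 genes in the Bcl6, 2386 in the Prdm1 and 977 in the Tcf7 experiment, and 6 and 2 other potassium channel genes in the last 2. Under it Kcnk6 in the Prdm1 experiment (-0.71) and Kcnn4 in the Tcf7 experiment (-0.56) were called. No label says that a number pairs libraries. Deviations of same-numbered libraries correlated at -0.24, -0.01 and -0.33 in the reporter, -0.46 in the Bcl6, 0.55 in the Prdm1 and 0.07 in the Tcf7 experiment, and no reporter library correlated best with its own number. Kcnk1 in RFP-CD160- libraries rests on 6 to 20 reads each, which limits its fold.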

Other observations

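The libraries titled LI did not share the level of Kcnk1 with that of Kcnip2 and Kcnn4. Kcnk1 was at 0.104 and 0.139 FPKM there, from 7 reads in each library, below every sorted small-intestine library, and so were Kcnk6 at 1.23 and 1.30 FPKM and Kcna3 at 36.9 and 33.9 FPKM. Kcnk5, at 4.34 and 3.30 FPKM, lay between the RFP+CD160+ and RFP-CD160- ranges. Kcng3 was at 0.496 and 0.582 FPKM, near its RFP+CD160+ values, and Trpv2 was at 9.43 and 9.17 FPKM, above all sorted libraries. The summed epithelial markers of these libraries were 44.2 and 39.3 FPKM, with Fabp1 and Defa24 listed at 0 in both.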
